A study of Homo sapiens with 6 samples.

Results

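The 10 long noncoding RNAs (lncRNAs) MALAT1, NEAT1, H19, MIR210HG, UCA1, PVT1, KCNQ1OT1, MEG3, TUG1 and GAS5 were taken by gene symbol from a table of 60708 genes, and each symbol matched 1 gene. They were chosen as RNAs that stay in the nucleus or are linked to hypoxia. RNA-seq had been run on 6 samples of Caki-1 cells, an established human clear cell renal carcinoma line, to compare control cells with cells edited at VHL, the tumor suppressor gene most often lost in this cancer. The 3 VC samples (wild-type genotype) had received the lenti-CRISPR vector alone. The 3 VHL-KO samples had received the same type of vector with a guide RNA against VHL, so both groups went through lentiviral infection. Puromycin-selected VHL-KO cells were grown as clonal lines and tested by immunoblot, and how many clones the 3 samples came from is not given in the sources used here, so the edit and properties of a clone cannot be told apart. Reads counted on genes totalled 31789923, 28463579 and 34881739 for VC replicates 1 to 3. Totals for VHL-KO replicates 1 to 3 were 29139722, 22805385 and 22628246. Nothing says that replicates came from separate cultures, and p-values then measure only the spread between these samples, which may be technical.

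VHL is the substrate-recognition subunit of a ubiquitin ligase that marks hypoxia-inducible factor (HIF) α subunits for degradation when oxygen is present, and cells without it keep HIF active. HIF binds a short core motif near its target genes, and the host gene of miR-210 is among its best known noncoding targets. MALAT1 resides in nuclear speckles, NEAT1 builds the scaffold of paraspeckles, KCNQ1OT1, H19 and MEG3 belong to imprinted domains, and GAS5 hosts small nucleolar RNAs (snoRNAs) in its introns.

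MIR210HG gives rise to the hypoxia-linked microRNA miR-210, whose mature strands are shown because they are what the host transcript is best known for. The hairpin lies at chr11:568089-568198 on the minus strand, 259 bases inside the annotated start of MIR210HG and in an intron of all 9 annotated transcripts of the host. The strands, credited to RefSeq on GRCh38.p14, are at chr11:568112-568133 (3p) and chr11:568150-568171 (5p). Capitals mark the seed, bases 2 to 8 from the 5′ end.
hsa-miR-210-3p: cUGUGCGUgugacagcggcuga
hsa-miR-210-5p: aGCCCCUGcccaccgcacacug

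Promoter windows of 300 bases, 250 before to 50 after a RefSeq transcript start, were matched for 6 of the 10 lncRNAs. They were searched on both strands for ACGTG and GCGTG, the core that HIF recognizes; the reverse complements CACGT and CACGC are marked in the same way, and CACGTG counts on both strands. At least 1 match was held by 48.4% of all 35116 windows in the RefSeq table, and at least 2 by 23.1%. MIR210HG, with the largest rise of the 10, is shown beside MALAT1 and GAS5, which also rose, and TUG1, which did not pass the test. The windows are chr11:568408-568707 (minus strand), chr11:65497488-65497787 (plus strand), chr1:173868996-173869295 (minus strand) and chr22:30969015-30969314 (plus strand), in that order. Capitals mark matches.
MIR210HG promoter: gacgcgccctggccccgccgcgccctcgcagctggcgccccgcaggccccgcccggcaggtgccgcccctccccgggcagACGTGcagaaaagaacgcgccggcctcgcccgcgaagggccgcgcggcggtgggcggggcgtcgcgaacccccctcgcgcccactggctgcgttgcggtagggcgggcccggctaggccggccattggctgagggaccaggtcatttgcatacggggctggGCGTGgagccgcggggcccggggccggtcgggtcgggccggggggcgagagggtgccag
MALAT1 promoter 1: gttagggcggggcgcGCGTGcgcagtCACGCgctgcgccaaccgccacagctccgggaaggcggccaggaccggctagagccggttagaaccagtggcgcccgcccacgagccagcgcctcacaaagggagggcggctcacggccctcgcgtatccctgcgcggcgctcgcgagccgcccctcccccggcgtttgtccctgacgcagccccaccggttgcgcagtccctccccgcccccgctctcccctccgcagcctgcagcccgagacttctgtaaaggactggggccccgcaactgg
GAS5 promoter: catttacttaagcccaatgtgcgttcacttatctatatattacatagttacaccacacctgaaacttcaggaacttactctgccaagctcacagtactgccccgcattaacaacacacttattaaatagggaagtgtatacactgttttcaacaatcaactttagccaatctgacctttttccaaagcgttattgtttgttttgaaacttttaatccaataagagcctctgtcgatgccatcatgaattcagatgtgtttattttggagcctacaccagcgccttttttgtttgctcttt
TUG1 promoter: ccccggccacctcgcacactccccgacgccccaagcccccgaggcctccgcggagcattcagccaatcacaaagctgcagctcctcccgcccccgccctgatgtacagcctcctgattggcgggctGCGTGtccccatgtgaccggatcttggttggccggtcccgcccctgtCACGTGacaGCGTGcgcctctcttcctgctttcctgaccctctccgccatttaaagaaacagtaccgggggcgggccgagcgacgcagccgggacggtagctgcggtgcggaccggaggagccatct

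The MIR210HG window held 2 matches, both on the strand of the gene, and the MALAT1 window shown held 2, 1 on each strand. Another MALAT1 window, chr11:65498795-65499094, held 1 match and is not shown. TUG1 had 4, of which 2 overlap in CACGTG, and GAS5 had none in these bases. The H19 window held 0 matches and the MEG3 windows held 1, 1 and 0, and they are not shown. The windows shown had a GC content of 80.0% (MIR210HG), 73.7% (MALAT1), 37.7% (GAS5) and 67.7% (TUG1), beside a median of 58.7% over all windows. The shares of all windows with a match were not adjusted for GC content. The RefSeq start behind the GAS5 window lies 163 bases upstream of the start in GENCODE release 44, and that behind the MALAT1 window shown 98 bases downstream. Matches describe letters only, and neither binding of HIF nor its absence was measured.

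VHL, the edited gene, gave 1454, 1124 and 1522 reads in VC replicates 1 to 3, against 929, 657 and 650 reads in those of VHL-KO. All 3 VHL-KO samples were below all 3 VC samples, with 40.2 ± 2.38 CPM in VC and 31.9 ± 2.49 in VHL-KO cells (CPM, counts scaled to a common library size after TMM normalization, mean ± SD, n = 3 each). On the log2 scale this was -0.33 (standard error, SE, 0.11; Benjamini-Hochberg adjusted p = 0.0109 by the quasi-likelihood test in edgeR). With edgeR's test it lost the threshold under upper quartile factors (adjusted p = 0.0905), with VC replicate 1 left out (0.0862) and with VHL-KO replicate 2 left out (0.0621). The transcript was thus still counted in VHL-KO cells. Protein was not measured in these data, and per the study's methods the loss of VHL in Caki-1 clones was verified by immunoblot.

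Of the 10 lncRNAs, 7 had at least 10 reads in some sample and were tested, and all 7 also had at least 10 reads in every sample. In VHL-KO cells 5 of the 7 rose (MIR210HG, MALAT1, NEAT1, KCNQ1OT1 and GAS5), 0 fell, and 2 (PVT1 and TUG1) did not pass an adjusted p of 0.05. Across all 17401 tested genes 59.7% passed, 28.5% as higher and 31.2% as lower, so a change alone was common in this comparison. Among the 2853 tested genes annotated as lncRNA, 30.5% were higher and 7.4% lower. Only 412 of them averaged at least 100 normalized counts, as all 7 tested here did, and of those 412 genes 220 were higher and 55 lower. TUG1 is annotated as protein-coding and is outside both sets. The VC and VHL-KO samples did not overlap for 6 of the 7 lncRNAs, against 64.7% of all tested genes. The median log2 fold change was 0.88 over the 7 lncRNAs, 0.48 over the lncRNA class, -0.13 over 13063 protein-coding genes and -0.01 over all tested genes. Scaling by library size alone moved the median of all genes to -0.20, and with it 35.8% instead of 47.7% of the called genes were higher.

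**Figure D1:**
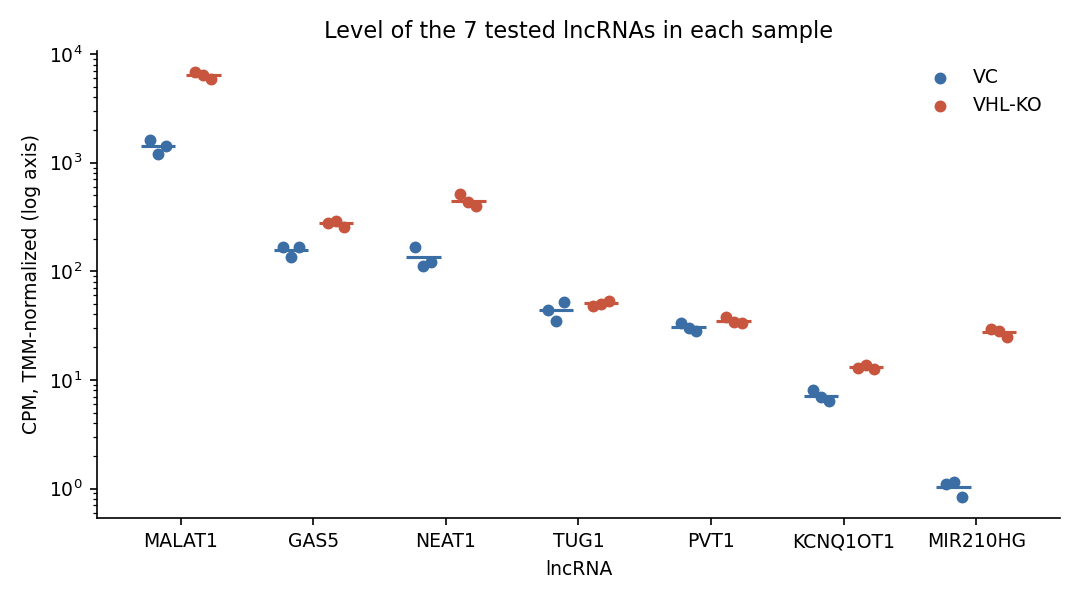
Level of the 7 tested lncRNAs in each of the 6 samples, in CPM on a log axis; points are samples and horizontal lines are group means of 3. All VHL-KO points lie above all VC points for MALAT1, GAS5, NEAT1, KCNQ1OT1 and MIR210HG, those of PVT1 barely do, and those of TUG1 overlap.

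MIR210HG (ENSG00000247095.3) lies on chromosome 11 from 565657 to 568457 on the minus strand of GRCh38, with 2324 exonic bases that no other annotated gene shares. It gave 38, 34 and 32 reads in VC replicates 1 to 3, against 786, 610 and 531 reads in those of VHL-KO. It was low in every VC and high in every VHL-KO sample, and the lowest VHL-KO sample, at 24.9 CPM, was far above the highest VC sample, at 1.14 CPM. Means were 1.03 ± 0.166 CPM in VC and 27.5 ± 2.35 CPM in VHL-KO cells (SD, n = 3), a 26.8-fold difference. On the log2 scale the change was 4.74 (SE 0.18, adjusted p = 1.11e-16 by edgeR's quasi-likelihood test).

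The separate annotated gene of the hairpin, MIR210, held few reads, with 6, 0 and 0 reads in VC against 35, 16 and 7 reads in VHL-KO samples. These were higher in VHL-KO samples, but the nearest samples of the groups held 6 and 7 counts. They are reads of the RNA-seq libraries across the hairpin and do not measure mature miR-210. Both protein-coding neighbors of MIR210HG were also measured. RASSF7, a Ras-association domain gene 1.6 kb away, rose by a log2 fold change of 0.76 (standard error 0.11), from 71 ± 12 to 120 ± 5.56 CPM, and by 0.16 with GC and length offsets. PHRF1, a ubiquitin ligase gene 8.0 kb away on the other side, had a log2 fold change of -0.28 (standard error 0.10), and its call was lost under upper quartile factors and when VC replicate 2 or VHL-KO replicate 1 or 2 was left out. The rise of MIR210HG was therefore much larger than either change beside it, with no test of that difference.

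Other microRNA host lncRNAs were set beside it. Of 22 listed without the 10 lncRNAs, 17 were tested, 9 rose, 2 fell and 6 did not pass, with a median log2 fold change of 0.49 beside 0.48 in the lncRNA class, of which 30.5% rose and 7.4% fell. In that class 220 of the 412 genes averaging at least 100 normalized counts rose and 55 fell. MIR29B2CHG, host of miR-29b and miR-29c, had 62, 47 and 66 reads in VC against 287, 268 and 230 reads in VHL-KO samples. These samples did not overlap, and the log2 fold change was 2.72 (standard error 0.18). MIR193BHG had a log2 fold change of 2.17 (standard error 0.15) and MIR31HG of 1.41 (0.15). MIR23AHG, the most abundant of the list, had 0.36 (standard error 0.13), which did not pass with library size alone, without VHL-KO replicate 2 or with GC and length offsets. The 2 that fell, MIR22HG (-0.45) and MIR4435-2HG (-0.30), are named after their values were seen, and the number of falls ranged from 0 to 3 over the other settings.

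MALAT1 (ENSG00000251562.8) lies on chromosome 11 from 65497640 to 65508073 on the plus strand, with 10434 exonic bases. It gave 55090, 35312 and 54467 reads in VC replicates 1 to 3, against 182546, 137438 and 126446 reads in those of VHL-KO. Every VHL-KO sample held more than any VC sample although VHL-KO libraries were shallower at the median. It took 0.173%, 0.124% and 0.156% of all counts in VC replicates 1 to 3 and 0.626%, 0.603% and 0.559% in VHL-KO replicates 1 to 3. Means were 1412 ± 213 CPM in VC and 6375 ± 451 CPM in VHL-KO cells (SD, n = 3), a 4.52-fold difference. This corresponds to a log2 fold change of 2.18 (SE 0.10, adjusted p = 6.56e-15 by edgeR's quasi-likelihood test). It was the most abundant in both groups, on the CPM scale, of 412 lncRNA-annotated genes averaging 100 or more normalized counts. An antisense gene, TALAM1, covers 83.7% of its exonic bases together with smaller genes, and since the sources used here do not say that counting used strand, reads of MALAT1 and of its antisense RNA cannot be told apart.

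NEAT1 (ENSG00000245532.9) lies 52.1 kb before MALAT1, on chromosome 11 from 65422774 to 65445540 on the plus strand. It gave 5703, 3355 and 4630 reads in VC replicates 1 to 3, against 13673, 9323 and 8527 reads in those of VHL-KO. All VHL-KO samples were higher than all VC samples, and within each group replicate 1 was the highest, at 167 CPM in VC and 512 CPM in VHL-KO cells. Means were 134 ± 29.0 CPM in VC and 448 ± 57.6 CPM in VHL-KO cells (SD, n = 3), a 3.34-fold difference. In log2 units VHL-KO exceeded VC by 1.74 (SE 0.12, adjusted p = 1.06e-11 by edgeR's quasi-likelihood test). Counts were summed over the gene, and the short and the long isoform of NEAT1, of which the long form builds paraspeckles, were not separated. FRMD8, a protein-coding gene 9.2 kb before NEAT1, did not rise with it and had a log2 fold change of -0.27 (standard error 0.09). Its call was lost under upper quartile factors and without VC replicate 2 or VHL-KO replicate 1.

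Genes for the proteins that share these nuclear bodies moved in the opposite direction. Of 28 paraspeckle protein genes 27 were tested, 24 fell, 1 rose and 2 did not pass. Their median log2 fold change was -0.84 beside -0.01 over all tested genes, of which 31.2% fell and 28.5% rose. SFPQ, a core paraspeckle protein that binds NEAT1, had 14569, 12347 and 17153 reads in VC against 4579, 3579 and 3557 reads in VHL-KO samples. It was lower in every VHL-KO sample, with a log2 fold change of -1.36 (standard error 0.09). RBM12 fell by 1.41, HNRNPR by 1.34 and NUDT21 by 1.26 on the log2 scale, with standard errors of 0.11, 0.09 and 0.15. HNRNPA1, the most abundant, fell from 1280 ± 37.6 to 712 ± 18.6 CPM. The gene that rose, CIRBP, a cold-inducible RNA-binding protein named after its value was seen, had a log2 fold change of 0.77 (standard error 0.09).

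Nuclear speckle proteins and SR splicing factors, the neighbors of MALAT1 in the nucleus, were lower as well. Of 26 tested genes 21 fell, 2 rose and 3 did not pass, with a median log2 fold change of -0.51, where 31.2% of all tested genes fell. Over the other settings the number that fell ranged from 14 (upper quartile factors) to 21, with 15 under GC and length offsets, and the number that rose from 1 to 4. SRSF1, an SR protein known to bind MALAT1, was at 23.6 ± 6.07 CPM in VC and 7.60 ± 1.01 CPM in VHL-KO cells, and the groups did not overlap. Its log2 fold change was -1.64 (standard error 0.17). SRPK1, the kinase of SR proteins, fell by 1.53, SRSF3 by 1.41 and TRA2B by 1.37 on the log2 scale. SRRM2, a structural protein of speckles and the most abundant of the list, had a log2 fold change of -0.31 (standard error 0.09). It did not pass under upper quartile factors (adjusted p = 0.0674 by edgeR's quasi-likelihood test), and was at -0.51 with GC and length offsets. MALAT1 and NEAT1 thus rose while most genes for their protein partners fell. With GC and length offsets the medians of the lists moved closer to 0 and stayed below it, at -0.51 for paraspeckle proteins and, with the replicate block added, -0.30 for speckle proteins.

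**Figure D2:**
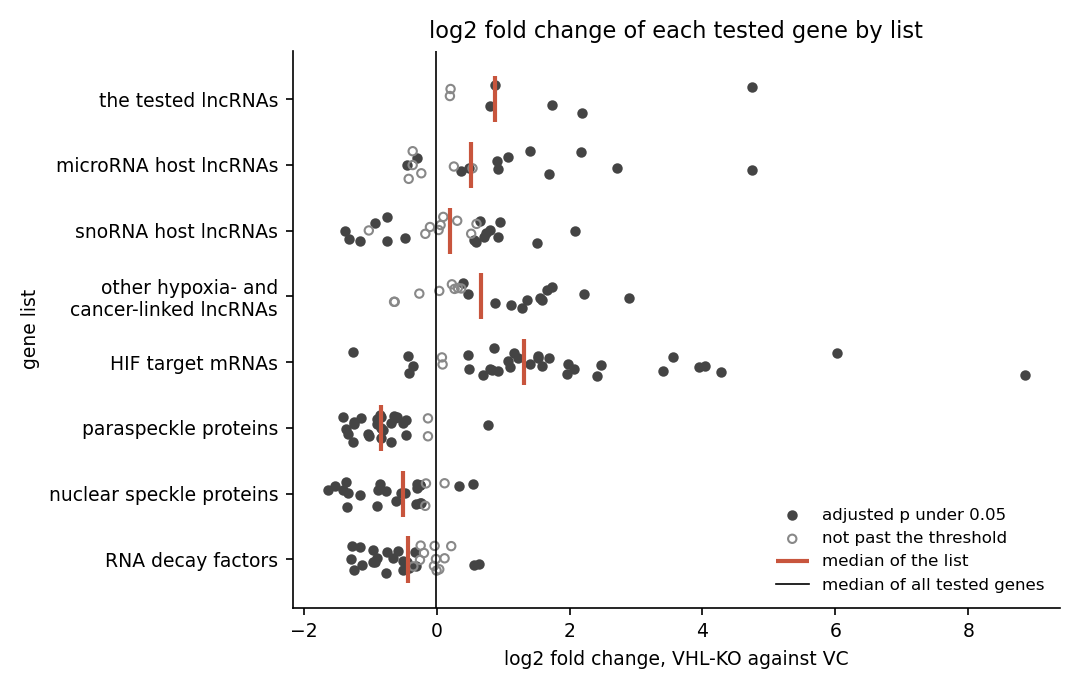
log2 fold change of each tested gene, VHL-KO against VC, for the 7 tested lncRNAs and 7 other gene lists; filled points passed an adjusted p of 0.05, open points did not, and red bars are list medians. Lists of lncRNAs and HIF target mRNAs have medians above the line of all tested genes at -0.01, and those of paraspeckle proteins (-0.84), nuclear speckle proteins (-0.51) and RNA decay factors (-0.43) lie below it.

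Factors of RNA decay, among them the nuclear exosome and its adaptors, were listed because nuclear RNAs are turned over there. Of 32 tested genes 19 fell, 2 rose and 11 did not pass, with a median log2 fold change of -0.43, where 31.2% of all tested genes fell and 28.5% rose. The number that rose was 5 with GC and length offsets and the replicate block, and the number that fell ranged from 17 to 22 over the other settings. MTREX, the exosome helicase, fell by 1.29, SMG1, a kinase of nonsense-mediated decay, by 1.28, METTL3, the m6A methyltransferase, by 1.24, and XRN2, a nuclear exonuclease, by 1.16 on the log2 scale. SMG5, the most abundant, had a log2 fold change of -0.33 (standard error 0.09), which did not pass under upper quartile factors. The stability of the lncRNAs was not measured.

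KCNQ1OT1 (ENSG00000269821.1) is transcribed antisense within KCNQ1, on chromosome 11 from 2597308 to 2700003 on the minus strand, and silences neighbors on the paternal chromosome. It gave 273, 205 and 242 reads in VC replicates 1 to 3, against 344, 294 and 269 reads in those of VHL-KO. On the raw scale VC replicate 1 was above VHL-KO replicate 3, but after normalization all VHL-KO samples, from 12.6 to 13.6 CPM, were above all VC samples, from 6.37 to 7.99 CPM. Means were 7.09 ± 0.827 CPM in VC and 13 ± 0.523 CPM in VHL-KO cells (SD, n = 3). Its log2 fold change came to 0.88 (SE 0.15, adjusted p = 2.27e-05 by edgeR's quasi-likelihood test). KCNQ1 had at most 2 counts in any sample, and genes on the opposite strand share 1.2% of the exonic bases of KCNQ1OT1.

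H19 and MEG3, maternally expressed lncRNAs of imprinted domains, were at the limit of detection. H19 gave 0, 1 and 1 reads in VC replicates 1 to 3, against 0, 4 and 0 reads in those of VHL-KO, and MEG3 had 0 in all 6. A count of 0 allows a level of up to 3 counts, which is 0.0878, 0.101 and 0.0790 CPM in VC replicates 1 to 3 and 0.112, 0.139 and 0.141 CPM in VHL-KO replicates 1 to 3, for counting error only. A difference between groups was not detectable for these genes at this depth. Their neighbors were mostly at the same limit, with 0 counts of DLK1 in all samples and a mean of 0.0293 CPM in VC and 0 in VHL-KO cells for IGF2. MRPL23, a mitochondrial ribosomal protein gene 10.6 kb from H19, was expressed and rose by a log2 fold change of 0.72 (standard error 0.10).

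Of 20 other genes in the imprinted domains of H19, KCNQ1OT1 and MEG3, 7 were tested, 5 rose, 2 fell and 8 had 0 counts in all samples, in a comparison where 59.7% of all tested genes passed. All 7 belong to the region around KCNQ1OT1 and have values that do not share a direction. SLC22A18, a transporter gene, was at 11.9 ± 1.72 CPM in VC and 36.9 ± 4.04 CPM in VHL-KO cells, with a log2 fold change of 1.63 (standard error 0.13). CD81, the most abundant, rose by 0.76 and PHLDA2, a growth-restraining placental gene, fell by 0.72 on the log2 scale. CDKN1C, the cell cycle inhibitor that KCNQ1OT1 is known to silence in cis, had 309, 285 and 318 reads in VC against 327, 302 and 332 reads in VHL-KO samples. These raw counts were close between groups, and after normalization they were 9 ± 0.609 CPM in VC and 13.9 ± 1.67 CPM in VHL-KO cells. The log2 fold change was 0.63 (standard error 0.15), and 0.02 with GC and length offsets. Those offsets also lowered the number of genes that rose from 5 to 2, and alleles were not separated in these counts.

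GAS5 (ENSG00000234741.8) lies on chromosome 1 from 173858559 to 173868882 on the minus strand, and RefSeq places 11 snoRNA genes within it. It gave 5739, 4015 and 6388 reads in VC replicates 1 to 3, against 7493, 6285 and 5480 reads in those of VHL-KO. Raw counts overlapped, whereas after normalization the VHL-KO samples, at 280, 291 and 257 CPM, were all above the VC samples, at 168, 135 and 168 CPM. Means were 157 ± 19.1 CPM in VC and 276 ± 17.5 CPM in VHL-KO cells (SD, n = 3), a 1.76-fold difference. VHL-KO was above VC by 0.81 in log2 units (SE 0.10, adjusted p = 1.08e-07 by edgeR's quasi-likelihood test). The neighbor CENPL, a centromere protein gene 33.7 kb away, moved the other way, with a log2 fold change of -1.17 (standard error 0.15).

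Other snoRNA host lncRNAs moved both ways. Of 25 tested without GAS5, 9 rose, 7 fell and 9 did not pass, with a median log2 fold change of 0.10 beside 0.48 in the lncRNA class, where 30.5% rose and 7.4% fell, and -0.01 over all tested genes, where 28.5% rose and 31.2% fell. Among the 412 lncRNA genes averaging at least 100 normalized counts, 220 rose and 55 fell. ZFAS1 rose from 14.8 ± 2.37 to 42.4 ± 5.11 CPM, a log2 fold change of 1.51 (standard error 0.13). SNHG16, the most abundant, rose by 0.72 (standard error 0.08). SNHG10 fell by 1.38, SNHG4 by 1.32 and SNHG1 by 1.15 on the log2 scale, with standard errors of 0.19, 0.13 and 0.12. GAS5 thus lay among the hosts that rose, near SNHG16 in size of change.

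PVT1 (ENSG00000249859.12), next to MYC on chromosome 8 and host of 5 annotated microRNAs, gave 1140, 895 and 1062 reads in VC replicates 1 to 3, against 1017, 733 and 712 reads in those of VHL-KO. After normalization VC samples held 27.96 to 33.37 and VHL-KO samples 33.38 to 38.05 CPM, so the groups met without overlapping. Means were 30.5 ± 2.72 and 35.1 ± 2.55 CPM (SD, n = 3). The log2 fold change was 0.21 (95% interval -0.01 to 0.43, adjusted p = 0.117 by edgeR's quasi-likelihood test), which did not pass. It passed under upper quartile factors and with GC and length offsets. MYC, the oncogenic transcription factor 51.6 kb away, fell from 210 ± 10.8 to 118 ± 6.79 CPM, a log2 fold change of -0.82 (standard error 0.09), and GSDMC on the other side was near 0 in both groups.

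TUG1 (ENSG00000253352.10), an RNA found in nucleus and cytoplasm, on chromosome 22 from 30969245 to 30979395 that GENCODE release 44 lists as protein-coding, gave 1507, 1039 and 1993 reads in VC replicates 1 to 3, against 1280, 1088 and 1137 reads in those of VHL-KO. VC replicate 3, at 52.5 CPM, was above VHL-KO replicates 1 and 2, so the groups overlapped. Means were 43.8 ± 8.76 and 50.5 ± 2.71 CPM (SD, n = 3). The log2 fold change was 0.20 (95% interval -0.03 to 0.44, adjusted p = 0.153 by edgeR's quasi-likelihood test). Without VC replicate 3 it was 0.37 and passed (adjusted p = 0.00318 by the same edgeR test), and with GC and length offsets it was 0.56. MORC2, whose start lies 0.5 kb from that of TUG1, had a log2 fold change of -0.16 and did not pass, but passed at -0.35 with library size alone, and SMTN on the other side fell by 0.99.

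UCA1, an lncRNA named for its rise in urothelial carcinoma, had 0 counts in all 6 samples, within the limits given for H19 and MEG3. Its neighbor OR10H1 was also at 0, and CYP4F2 had a mean of 0 CPM in VC and 0.0463 CPM in VHL-KO cells. Among 31 other lncRNAs linked to hypoxia or cancer, 28 matched a gene, 20 were tested, 12 rose, 0 fell and 8 did not pass. Their median log2 fold change was 0.67 beside 0.48 in the lncRNA class, where 30.5% rose and 7.4% fell. At an average of at least 100 normalized counts, 220 of 412 genes of that class rose and 55 fell. The count of falls among the 20 was 1 with library size alone and without VHL-KO replicate 1. LUCAT1, a stress-responsive lncRNA, had 361, 261 and 343 reads in VC against 1973, 1530 and 1427 reads in VHL-KO samples, with no overlap and a log2 fold change of 2.90 (standard error 0.12). RAB11B-AS1 had a log2 fold change of 1.74, TP53TG1 of 1.66 and GAPLINC of 1.12, all still higher with GC and length offsets, where TP53TG1 had the largest value of these. NORAD, a cytoplasmic RNA that binds PUMILIO proteins and the most abundant of the list, rose from 128 ± 17.2 to 235 ± 4.63 CPM.

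Protein-coding HIF targets were counted for comparison. Of 34 tested 28 rose, 4 fell and 2 did not pass, with a median log2 fold change of 1.32 beside -0.01 over all tested genes, of which 28.5% rose and 31.2% fell. CA9, a carbonic anhydrase gene, had 0, 0 and 2 reads in VC against 288, 247 and 233 reads in VHL-KO samples. NDRG1 rose by a log2 fold change of 6.03 (standard error 0.11), ALDOC by 4.28 (0.13) and CXCR4 by 4.04 (0.17), and ENO1, the most abundant, by 0.84 (0.09). MIR210HG, at 4.74, lay between NDRG1 and ALDOC.

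The tested lncRNAs were compared in level per kilobase of exonic bases, whereas the most abundant gene of a list is named above and below without regard to length. In VC cells the order was MALAT1 (135 CPM per kb), GAS5 (31.9), NEAT1 (5.88), TUG1 (4.32), PVT1 (1.20), MIR210HG (0.444) and KCNQ1OT1 (0.0765). NEAT1 and TUG1 did not differ beyond their spread there, with 4.96 to 7.33 and 3.44 to 5.17 CPM per kb. In VHL-KO cells NEAT1, at 19.7, was above every TUG1 sample, and MIR210HG, at 11.8, had passed TUG1 (4.98) and PVT1 (1.38). MALAT1 stood at 611, GAS5 at 56.0 and KCNQ1OT1 at 0.141 CPM per kb. The order depends on the length used. With the longest annotated transcript as length PVT1 was at 12.4 CPM per kb in VC and 14.3 in VHL-KO cells, GAS5 at 49.9 and 87.8, and TUG1 at 5.87 and 6.76.

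**Figure D3:**
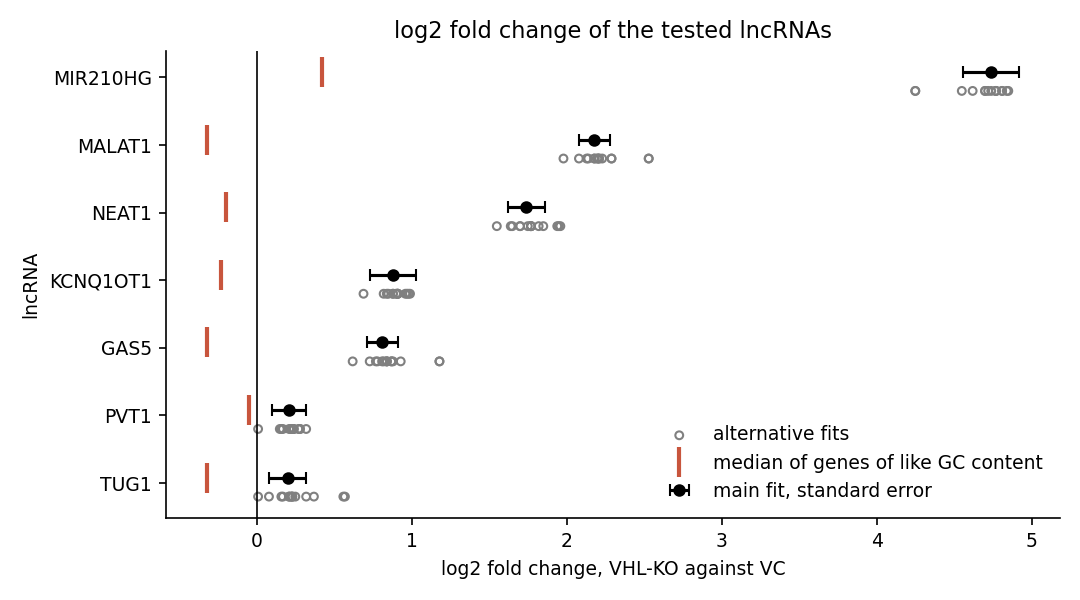
log2 fold change of the 7 tested lncRNAs, VHL-KO against VC; black points are the main values with standard errors, open circles the 15 alternative fits, and red bars the median of tested genes within 2 percentage points of GC content. MIR210HG lies between 4.25 and 4.85 in the alternatives, MALAT1 between 1.98 and 2.53 and NEAT1 between 1.55 and 1.96, while PVT1 and TUG1 come down to 0.01.

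The log2 fold changes of all genes followed GC content, and the lncRNAs were set against genes of like GC content. The median ran from -0.48 for genes with 35 to 40% GC to 0.51 for those with 60 to 65%. Beyond these bins it was -0.31 at 30 to 35%, 0.52 at 65 to 70% and 0.64 at 70 to 75%. MALAT1, TUG1 and GAS5, with 42.0%, 42.0% and 42.1% GC, stand among genes with a median of -0.32, and NEAT1 and KCNQ1OT1, with 44.1% and 43.7%, among genes with medians of -0.20 and -0.23. Of the 7 tested lncRNAs, only MIR210HG, at 59.3% GC, is among genes whose median was above 0, at 0.42. With GC and length offsets MALAT1 accordingly had a larger value and MIR210HG a smaller one, and both passed. These offsets remove any change that follows GC content, whatever its source, and the source was not tested.

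**Figure D4:**
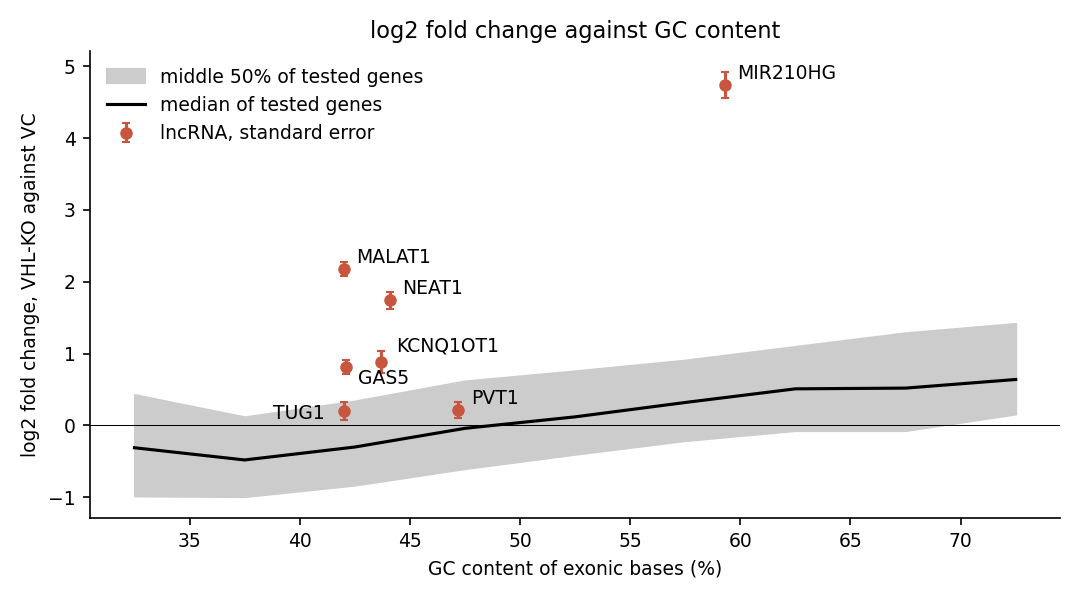
log2 fold change, VHL-KO against VC, against the GC content of exonic bases; the line is the median of tested genes in bins of 5 percentage points, the band their middle 50%, and points the 7 tested lncRNAs with standard errors. MALAT1, NEAT1, KCNQ1OT1, GAS5 and MIR210HG lie above the band, and TUG1 and PVT1 lie within it.

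Genes annotated as lncRNA with at least 100 normalized counts on average and no overlap between groups were ranked to place the 10. The average runs over all 6 samples, so a gene can enter through the group where it is high, and the ranking favors large changes. The 5 largest rises were LINC02532 (log2 fold change 4.93), MIR210HG (4.74), LINC01615 (3.94), AC084117.3 (3.24) and PCAT6 (2.94). The 5 largest falls were RP4-555D20.2 (-4.66), RP11-301G19.1 (-2.64), LINC02693 (-2.33), EMSLR (-1.69) and RP5-1086D14.6 (-1.66). All 5 rises were below 100 reads in every VC sample, and 3 of the 5 falls below 100 in every VHL-KO sample. LINC02532 had 16, 11 and 22 reads in VC against 422, 330 and 276 reads in VHL-KO samples. Of the 412 lncRNA genes at this abundance 220 rose and 55 fell, with MALAT1 at rank 17, NEAT1 at 33, KCNQ1OT1 at 118, GAS5 at 129 and PVT1 at 268 by log2 fold change. TUG1, which GENCODE release 44 lists as protein-coding, was not ranked.

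Genes with the most similar profile over the 6 samples were found by Euclidean distance between centred log2 CPM values, among 10908 genes. For MIR210HG they were MAPT (distance 0.285), C1QL1 (0.304) and the HIF target ALDOC (0.490). MALAT1 was nearest to CLEC2B (0.213), FAM162A (0.256) and GPR155 (0.296). For NEAT1 they were PIGZ (0.251), RPL3P4 (0.273) and ZBTB20 (0.285), of which RPL3P4 is a pseudogene that can share reads with its parent gene. With 3 samples in each of 2 groups the distance mostly reads the size of the difference between groups.

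The makeup of the samples was checked with marker genes. Of 12 kidney epithelial markers 10 were tested, 5 rose, 2 fell and 3 did not pass, where 59.7% of all tested genes passed. The summed level of the list was 7920, 8870 and 7690 CPM in VC and 8740, 8170 and 8520 CPM in VHL-KO samples. Most of this sum was VIM, also a mesenchymal marker, at 6430 ± 445 and 6130 ± 249 CPM, and the rest of the sum was higher in every VHL-KO sample than in any VC sample. PAX8, a renal lineage factor, was at 427 ± 38.8 and 614 ± 14.2 CPM and KRT8 at 670 ± 86.6 and 951 ± 13.7 CPM, CDH16 rose by a log2 fold change of 3.42 and LHX1 fell by 1.67, and PAX2 was at 0 in all samples. Of 8 leukocyte markers CD14 alone was tested (1.56 ± 0.231 and 4.30 ± 0.852 CPM). The list summed to 1.73, 1.78 and 1.37 CPM in VC and 4.46, 5.51 and 3.98 CPM in VHL-KO samples, with CD3D, CD3E and MS4A1 at 0. Of 5 endothelial markers PECAM1 alone was tested, with at most 14 counts in a sample. The endothelial list summed to 0.234, 0.168 and 0.237 CPM in VC and 0.711, 0.324 and 0.469 CPM in VHL-KO samples, with CLDN5 at 0. Of 6 fibroblast markers COL1A1 and PDGFRB were tested and fell, by 0.42 and 1.94 on the log2 scale. The fibroblast list summed to 43.3, 47.2 and 37.2 CPM in VC and 29.8, 27.1 and 25.5 CPM in VHL-KO samples, with COL3A1 and LUM at 0. Fewer cells with a transcript and less of it per cell cannot be told apart in bulk RNA.

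RNAs that lack a poly(A) tail were listed as a sign of library makeup, because MALAT1 and the long form of NEAT1 end without a standard tail. Of 20 listed 6 had 0 counts in all samples and 8 were tested. Of these 8, 4 rose, 1 fell and 3 did not pass, in a comparison where 59.7% of all tested genes passed. With GC and length offsets 3 rose and 4 fell, and the median log2 fold change turned from 0.38 to -0.41, while the single fall was lost in 6 other settings. Their sum was 133, 96.4 and 111 CPM in VC and 236, 213 and 207 CPM in VHL-KO samples. RN7SL1, the most abundant, was at 57.6 ± 21.4 CPM in VC and 56.0 ± 10.5 CPM in VHL-KO cells and did not pass, but with GC and length offsets it fell, at -1.06 (adjusted p = 4.09e-05 by edgeR's quasi-likelihood test). Histone genes H1-2 (HIST1H1C), H2AC6 (HIST1H2AC) and H2BC12 (HIST1H2BK), which can also be polyadenylated, rose by 2.31, 1.98 and 1.15 on the log2 scale, and SNORD3A had 0.79 (standard error 0.23), which did not pass without VHL-KO replicate 3 or with GC and length offsets. Counts on mitochondrial genes were 7.19%, 6.05% and 7.38% of the total in VC and 10.8%, 9.63% and 10.1% in VHL-KO replicates 1 to 3. The higher sum of the list in VHL-KO samples came from these 3 histone genes, and the other 3 histone genes tested had lower means there. The mitochondrial share was higher in every VHL-KO sample, and its part in the rise of these lncRNAs was not tested.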

How the data were processed

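The values deposited by the authors are raw read counts per gene in 6 samples, without normalization. Per the study's methods, Trizol-extracted total RNA was sequenced on a NovaSeq, and reads were trimmed with Trim Galore and cutadapt, aligned with STAR to GRCh38.p13, reduced to uniquely mapped reads with SAMtools and counted with HTSeq. The kind of RNA selection, the strandedness and the annotation release are not given in the sources used here. Reads that fit several places were left out, which lowers counts of genes with near-identical copies.

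The comparison of VHL-KO and VC used edgeR 4.0.16 in R 4.3.3 (TMM factors, quasi-likelihood F test, two-sided, Benjamini-Hochberg adjustment over the 17401 genes that reached 10 reads in some sample), with a threshold of 0.05. Standard errors are the absolute log2 fold change divided by the square root of F, and the test was checked on simulated data. Where 0 reads were counted, a floor of 3 counts is given (95% level), and floors cover counting error only. No sample was a copy of another (within-group chi-square per degree of freedom 6.43 to 35.3). Positions, gene types, exonic lengths and GC content came from GENCODE release 44 on GRCh38, the assembly of the study, and 17355 of the tested genes matched it.

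Gene lists were written from general knowledge for microRNA hosts, snoRNA hosts, other hypoxia- and cancer-linked lncRNAs, paraspeckle proteins, nuclear speckle proteins, imprinted domains, HIF targets, RNA decay factors, RNAs without a poly(A) tail and 4 sets of cell markers. The members and lists were chosen with earlier results of these data known. Genes named are the 10 lncRNAs, VHL, the nearest protein-coding gene on each side, up to 4 genes per list with the largest change past the threshold and a mean of at least 100 normalized counts plus the most abundant, the 5 largest rises and falls of lncRNA genes, and the 3 nearest profiles of the 3 lncRNAs with the largest change; others are named as exceptions, and some genes under these rules are not reported here. Alternatives were RLE and upper quartile factors, library size alone, DESeq2 1.42.0, no filter beyond 1 read, at least 10 reads in every sample, each sample left out in turn, a replicate block, offsets for GC content and length (splines with 5 degrees of freedom) with and without that block, and the longest transcript as length. Figures were drawn with matplotlib 3.10.9.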

Additional observations from a re-analysis of the deposited data

How the results depend on the processing

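MIR210HG, MALAT1, NEAT1, KCNQ1OT1 and GAS5 were higher and past the threshold in all 15 alternative fits. Their log2 fold changes ranged from 4.25 to 4.85, 1.98 to 2.53, 1.55 to 1.96, 0.69 to 0.99 and 0.62 to 1.18. PVT1 passed in 3 of 15 fits, with 0.32 under upper quartile factors, 0.28 with GC and length offsets and 0.27 with these and the replicate block, and TUG1 in 4, with 0.32, 0.56 and 0.57 in the same fits and 0.37 without VC replicate 3. Leaving out each sample in turn gave 0.15 to 0.28 for PVT1 and 0.08 to 0.37 for TUG1. The cause was not tested. Over all genes, the counts stayed within 1.5 times the main ones, 4958 higher and 5436 lower, and library size alone gave 3764 and 6737.

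With the replicate number as a replicate block the lncRNAs kept the same calls, with 0.21 for PVT1 and 0.22 for TUG1, and 4847 genes were higher and 5437 lower. Deviations of same-numbered samples correlated at 0.21, -0.10 and 0.08, and those of differently numbered samples at -0.24 to 0.08. With 3 samples in each group these values cannot decide whether same-numbered samples were handled together, which the sources used here do not state.

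Of 1180 alternative values for 79 other named genes, 1145 kept their direction and side of the threshold. VIM passed with library size alone, at -0.26, went to 0.04 under upper quartile factors and ranged from -0.09 to 0.01 with each sample left out. RN7SL1 passed at -1.06 with GC and length offsets, at -1 with these and the replicate block and at -0.27 without VC replicate 2. It went to 0.07 under upper quartile factors and 0.01 with the replicate block, and reached 0.25 without VC replicate 1. MORC2 passed with library size alone, at -0.35. None of these 3 had passed in the main comparison, and the cause was not tested.

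Depth limits H19, UCA1 and MEG3, at or near 0 counts, and isoforms, alleles and strands were not separated.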
